A study of Mus musculus with 14 samples.

Results

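The calcium-calcineurin-NFAT pathway was followed in repeatedly activated murine Th1 (Th1 rep) cells through 3 genes of the NFAT family of transcription factors (Nfatc1, Nfatc2 and Nfatc3), 2 genes of the phosphatase calcineurin (Ppp3cb and Ppp3r1) and the gene of a calcineurin inhibitor (Rcan1). All probe sets annotated to 1 of these 6 gene symbols were taken, which gave 22 of the 34945 probe sets with a single symbol. Of the 22, 16 had a mean log2 intensity of at least 5 over all arrays and were tested (4 of 5 for Nfatc1, 3 of 6 for Nfatc2, 2 of 2 for Nfatc3, 4 of 5 for Ppp3cb, 2 of 2 for Ppp3r1 and 1 of 2 for Rcan1). On GRCm38.p6 (RefSeq) the genes lie at chr18:80606205-80713071 (Nfatc1), chr2:168476410-168601657 (Nfatc2), chr8:106058818-106130537 (Nfatc3), chr14:20499364-20546573 (Ppp3cb), chr11:17159298-17200380 (Ppp3r1) and chr16:92391951-92466169 (Rcan1). The study asked which transcripts move when miR-31 is blocked in these cells. CD4+CD62Lhi T cells of OT-II mice, aged 6 to 10 weeks and carrying a T cell receptor against ovalbumin, had been driven to Th1 with ovalbumin peptide, irradiated antigen-presenting cells, IL-12 and anti-IL-4 and restimulated repeatedly. They then received Antagomir-31, an oligonucleotide that blocks miR-31, or the control Antagomir-SCR, each at 1 µM, and both arms were reactivated with anti-CD3 and anti-CD28 in the presence of IL-12, anti-IL-4 and IL-2. By the paper's general culture rule, cells were taken off the stimulus 48 h after activation unless stated otherwise. Whether this held for the cells of the 72 h arrays is not said. RNA of each arm was hybridised to Affymetrix Mouse 430_2 arrays, 2 for 36 h, 2 for 48 h and 3 for 72 h after treatment (14 in all), and no unstimulated culture is among them. The labels do not say whether arrays of one group came from separate cultures or mice, so the p-values measure the spread between these arrays, which may be technical.

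In T cells, engagement of the receptor opens calcium channels of the plasma membrane, and calcium-loaded calmodulin activates calcineurin, a phosphatase of a catalytic subunit (here Ppp3cb) and a regulatory subunit (Ppp3r1). Calcineurin strips phosphates from NFAT proteins, which enter the nucleus and, together with AP-1, switch on cytokine genes such as Il2. Nfatc1 and Rcan1 are themselves known as NFAT-induced genes, and the Rcan1 protein binds and inhibits calcineurin. RNA levels, which the arrays measure, say nothing of phosphorylation or nuclear entry.

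The targeted microRNA was not read from the arrays. Its mature 5p strand is shown here with its seed, bases 2 to 8, in capitals (RefSeq, GRCm38.p6, chr4:88910614-88910635, minus strand), because the seed is the part of a microRNA that pairs with its target RNAs.
mmu-miR-31-5p: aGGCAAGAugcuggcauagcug
None of the 6 genes stands in the list of putative miR-31 targets that the study supplies. Their relatives Ppp3ca, a further catalytic calcineurin subunit, and Nfatc4 do. For Ppp3ca the paper also reports a significant rise by qRT-PCR once the microRNA was blocked. On the arrays, neither gene passed the treatment test described below at 72 h, read by its brightest probe set. The smallest adjusted p at 72 h (limma) was 0.17 in the pathway list with Ppp3ca and 0.23 in that with Nfatc4.

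The cells carried the RNA of Th1 cells. All 8 T cell markers on the arrays (of 9 listed) and all 6 Th1 markers lay above the array median on all 14 arrays, with Cd4 at 147 to 322, Ifng at 8188 to 17166 and Tbx21 at 944 to 1885 (linear intensity units). The B cell genes Ms4a1, Cd79a and Cd79b, the myeloid genes Adgre1, Itgam, Itgax and Xcr1, the NK cell genes Ncr1 and Klra8 and also Il4 and Foxp3 were at or below the array median on every array. Other markers on these lists lay above it on all 14: Ighm (B cell), Csf1r, Lyz2 and Cd14 (macrophage and monocyte), Zbtb46, Siglech and Batf3 (dendritic cell), Cd8a, Il13 and Ikzf2. Pax5 and Flt3 did so on 10 arrays, Eomes and Gata3 on 8, Cd8b1 on 2 and Cd68 on 1. Array medians spanned 23.4 to 23.8 for the 36 h arrays, 21.8 to 22.1 for those of 48 h and 27.9 to 28.4 for those of 72 h, so they were nearly alike only within a time point. Treatments are therefore compared within a time, and each difference between times is given as deposited and again after quantile normalization over all 14 arrays, since time and normalization cannot be told apart.

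**Figure D1:**
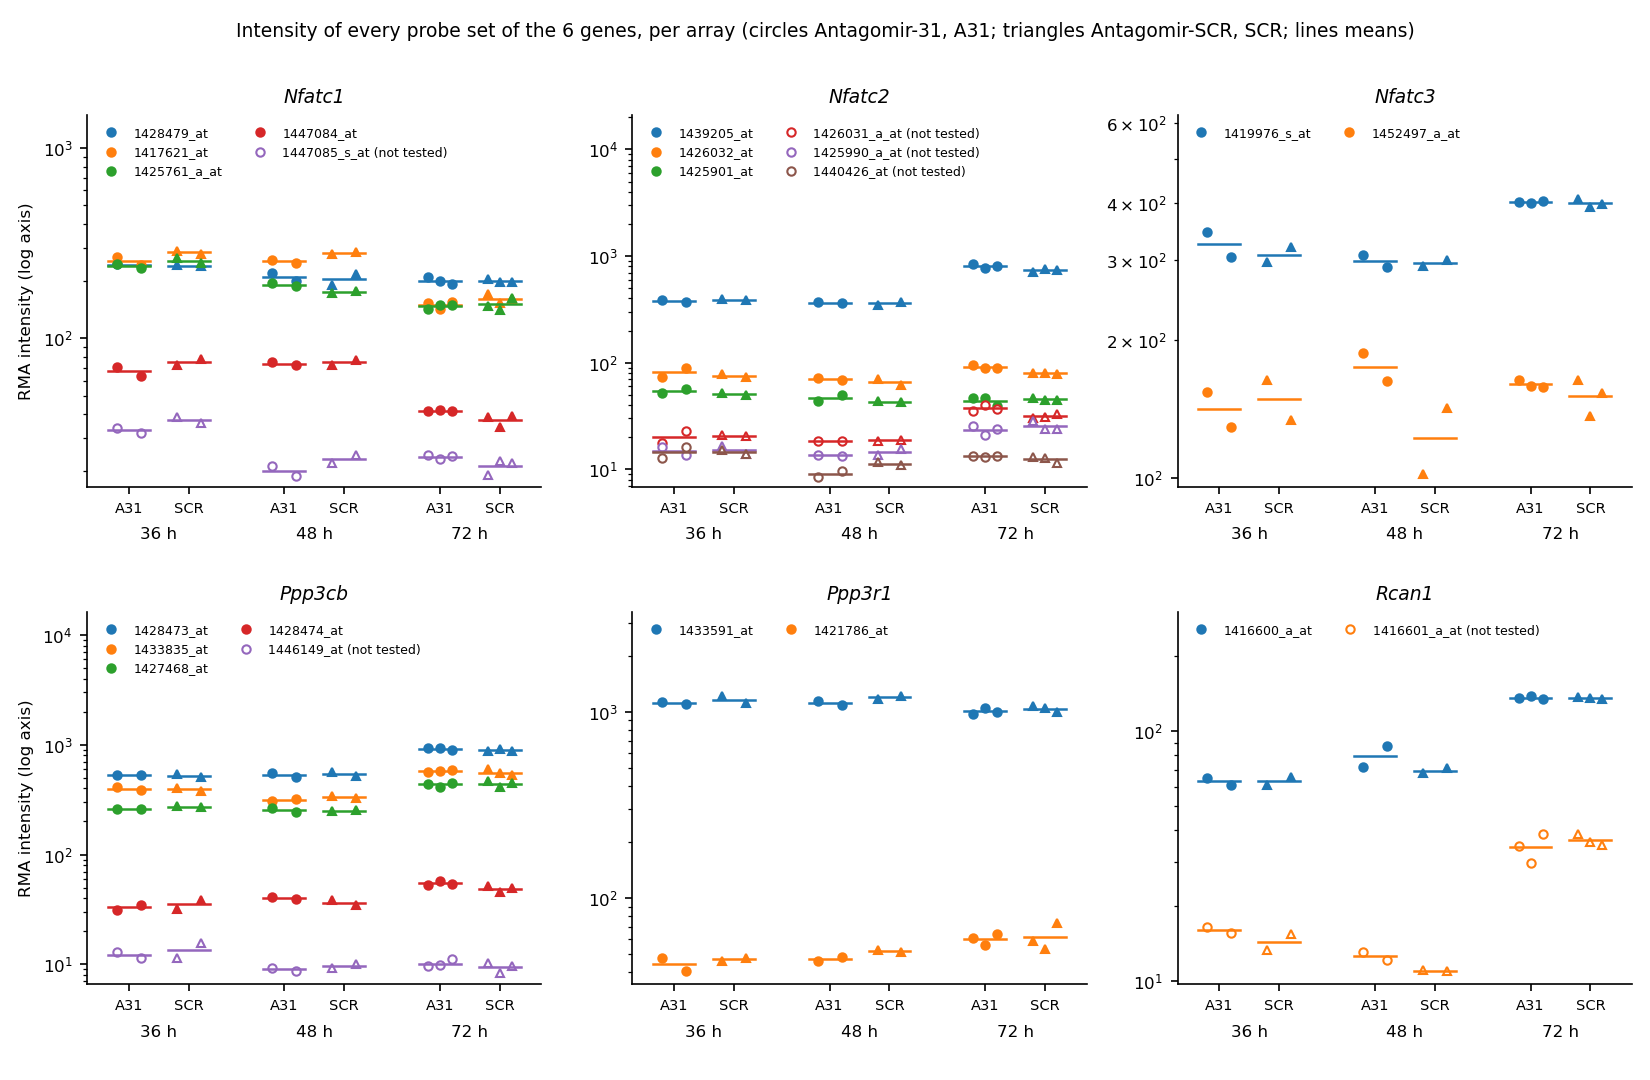
Linear RMA intensity (log axis) of all 22 probe sets, 1 panel a gene, on each of the 14 arrays. Circles are Antagomir-31 and triangles Antagomir-SCR, lines are group means, and open symbols are the probe sets under the limit for testing. At 72 h the bright probe sets of Nfatc2, Ppp3cb and Rcan1 lie above their 36 h and 48 h values in both treatments, and 3 of the probe sets of Nfatc1 lie below their 48 h values.

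No change of these 6 genes was detected between Antagomir-31 and Antagomir-SCR. None of the 16 probe sets passed the test at 36 h, 48 h or 72 h (limma, Benjamini-Hochberg adjusted p under 0.05), in the average over the 3 times, or in the difference of the 72 h effect from the mean of the earlier ones. Over all 17590 probe sets tested, 2 passed at 36 h (0.0114%), 0 at 48 h (0%), 152 at 72 h (0.864%), 3 in the average (0.0171%) and 8 in the late against early difference (0.0455%). At an unadjusted p under 0.05 the members counted 2, 2 and 3 at the 3 times, beside 862, 1065 and 3234 of all probe sets. The log2 differences of the members ran between -0.16 and 0.10 at 36 h, between -0.15 and 0.54 at 48 h and between -0.10 and 0.20 at 72 h. At 72 h, the time with the most arrays, the widest 95% confidence intervals among the 16 ended at -0.24 and 0.35.

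**Figure D2:**
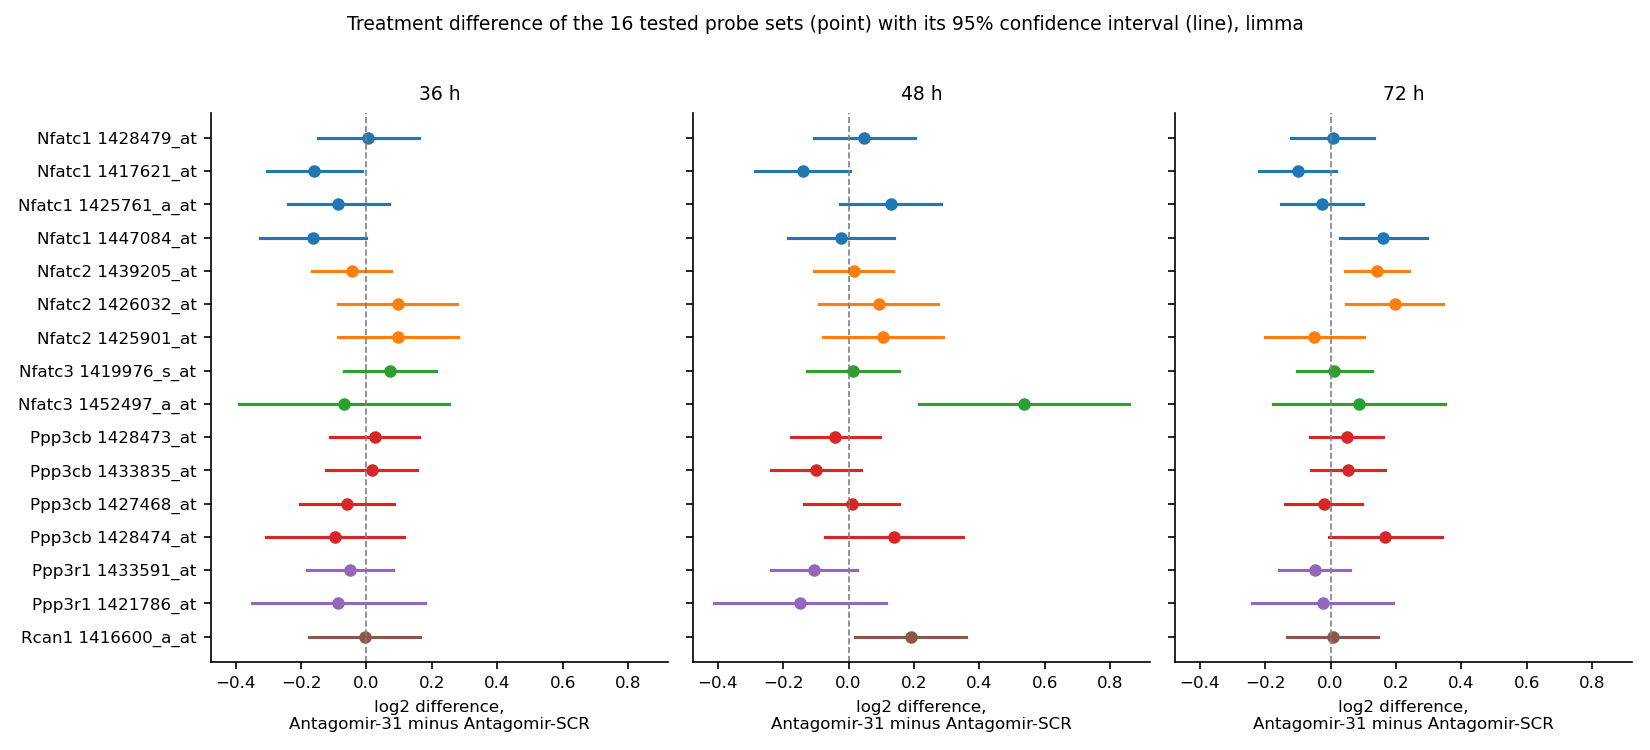
Log2 difference, Antagomir-31 minus Antagomir-SCR, of each of the 16 tested probe sets at 36 h, 48 h and 72 h, with its 95% confidence interval. The points lie between -0.16 and 0.20 except Nfatc3 1452497_a_at at 48 h (0.54), and none has an adjusted p under 0.05.

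Nfatc2 encodes an NFAT protein that resting T cells already contain. Of the 16 probe sets, its brightest, 1439205_at, had the smallest adjusted p at 72 h. It read 841, 779 and 806 with Antagomir-31 and 707, 752 and 739 with Antagomir-SCR at 72 h. The treatments did not overlap, yet the log2 difference of 0.14 (SE 0.045) had an adjusted p of 0.13. At 36 h the same probe set read 383 and 374 with Antagomir-31 and 396 and 385 with Antagomir-SCR, a non-overlap the other way. At 48 h its values were mixed, 368 and 361 with Antagomir-31 and 350 and 372 with Antagomir-SCR. A further Nfatc2 probe set, 1426032_at, also lay higher at 72 h, with 94.6, 89.5 and 89.4 under Antagomir-31 against 79.9, 80.0 and 78.7 under Antagomir-SCR (log2 0.20, SE 0.068, adjusted p 0.16). The remaining tested one, 1425901_at, did not separate the treatments at 72 h, with 46.2, 46.3 and 39.5 under Antagomir-31 and 46.9, 44.7 and 44.7 under Antagomir-SCR (log2 -0.05, SE 0.069, adjusted p 0.74). The 3 tested probe sets of 1 gene thus gave different readings of the treatment, none past the threshold. Of the dim ones outside the test, 1426031_a_at was higher with Antagomir-31 at 72 h (35.3 to 39.9, against 30.4 to 32.7). Its log2 difference was 0.25, with an adjusted p of 0.29 in the limma fit with no filter. The ranges of 1425990_a_at and 1440426_at overlapped at 72 h.

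Counting non-overlap alone, 4 of the 16 probe sets were higher with Antagomir-31 than with Antagomir-SCR on every 72 h array, 2 of them from Nfatc2 and 1 each from Nfatc1 and Ppp3cb, and 0 were lower. Of all probe sets 9.43% were higher and 14.9% lower in that sense. At 36 h the counts were 0 higher and 5 lower (background 14.6% and 14.3%), and at 48 h they were 5 higher and 4 lower (14.4% and 18.6%). The summed intensity of the T cell markers also separated the treatments at 72 h, with 15068 to 15461 under Antagomir-31 and 15726 to 16094 under Antagomir-SCR, and that of the Th1 markers did so with 19017 to 19780 and 20162 to 20537 in the same order. The dendritic cell sum was lower as well (3412 to 3713, against 3906 to 4032), while the macrophage and monocyte sum (212 to 220, against 205 to 208) and the Th2 and Treg sum (217 to 234, against 189 to 215) were higher. The B cell and the CD8 T and NK cell sums overlapped at 72 h. Batf3 made up nearly all of the dendritic cell sum (1246 to 3870 over the 14 arrays). No other gene of that list exceeded 59.15 on any array. At every time this sum is therefore mainly a reading of Batf3, which is also among the NFAT partners below, and not of dendritic cells. The Th1 sum was mainly Ifng (8188 to 17166 over the 14 arrays) and Ccl5 (3134 to 7192). No other gene of the Th1 list exceeded 2721 on any array. Ifng is also among the NFAT-dependent genes below. Without overlap, the dendritic cell and the Th2 and Treg sums were higher with Antagomir-31 at 36 h. At 48 h the dendritic cell and the CD8 T and NK cell sums were higher and the B cell sum lower. The part of these shifts in the members' values was not tested. In bulk RNA, fewer cells of a type and less RNA per cell cannot be told apart.

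Nfatc1 encodes the factor whose gene is induced upon activation. Its probe set 1417621_at was lower with Antagomir-31 on both 36 h arrays (266 and 242, against 289 and 278 with Antagomir-SCR) and on both 48 h arrays (259 and 250, against 278 and 284). At 72 h it read 154, 143 and 155 with Antagomir-31 and 171, 153 and 161 with Antagomir-SCR, and the ranges overlapped. Its average log2 difference of -0.13 (SE 0.036) had an unadjusted p of 0.0032 and an adjusted p of 0.31. The other 3 tested probe sets of Nfatc1 did not share this in the average, with differences of 0.01, 0.02 and -0.01. At 36 h alone, 1425761_a_at was also lower without overlap (235 to 247, against 248 to 265), but at 48 h it was higher (187 to 196, against 173 to 177). The dim 1447085_s_at, not tested, was lower at 36 h (32.0 to 34.0, against 36.0 to 38.5) and at 48 h (18.9 to 21.3, against 22.1 to 24.3). At 72 h it was higher (23.3 to 24.3, against 19.1 to 22.7). Probe set 1447084_at was higher with Antagomir-31 at 72 h (41.3, 41.9 and 41.8, against 38.6, 34.2 and 39.1 with Antagomir-SCR; log2 0.16, SE 0.061, adjusted p 0.19) and lower at 36 h (71.2 and 63.7, against 72.7 and 78.1).

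The largest single treatment difference among the members was that of Nfatc3 probe set 1452497_a_at at 48 h. It read 187 and 162 with Antagomir-31 and 102 and 142 with Antagomir-SCR (log2 0.54, SE 0.15, adjusted p 0.69). The Antagomir-SCR array at 102 stood apart, for the other 13 arrays of the series lay between 129 and 187. The brighter probe set of this gene, 1419976_s_at, read 308 and 289 with Antagomir-31 and 291 and 300 with Antagomir-SCR at the same time (log2 0.01, SE 0.065).

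No probe set of Ppp3cb, Ppp3r1 or Rcan1 was called for treatment either. The brightest Ppp3cb probe set, 1428473_at, read 930, 939 and 889 with Antagomir-31 and 872, 918 and 875 with Antagomir-SCR at 72 h (log2 0.05, SE 0.051). The brightest Ppp3r1 probe set, 1433591_at, read 976, 1049 and 996 with Antagomir-31 and 1079, 1044 and 1002 with Antagomir-SCR at 72 h (log2 -0.05, SE 0.050). Both pairs of ranges overlap. At 48 h both Ppp3r1 probe sets were lower with Antagomir-31 without overlap, 1433591_at with 1137 and 1090 against 1177 and 1220, and 1421786_at with 46.1 and 48.0 against 52.9 and 51.4. So were Ppp3cb 1433835_at at 48 h (305 and 320, against 340 and 329) and 1427468_at at 36 h (262 on both arrays, against 276 and 271). The dim Ppp3cb probe set 1428474_at was higher with Antagomir-31 at 48 h and at 72 h, where it gave a log2 difference of 0.17 (SE 0.079, adjusted p 0.28). Rcan1 probe set 1416600_a_at read 136, 138 and 134 with Antagomir-31 and 136, 136 and 134 with Antagomir-SCR at 72 h, a log2 difference of 0.01 with a 95% confidence interval of -0.13 to 0.14. At 48 h it read 71.9 and 87.0 with Antagomir-31 and 67.8 and 70.8 with Antagomir-SCR (log2 0.19, SE 0.078, adjusted p 0.79). The dim Rcan1 probe set 1416601_a_at, not tested, was higher with Antagomir-31 at 36 h (15.59 to 16.40, against 13.25 to 15.41). The same held at 48 h (12.17 to 13.06, against 10.98 to 11.01), all below the array medians. At 72 h its ranges overlapped.

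The time points differed by more. Between 48 h and 72 h, with both treatments averaged, 13 of the 16 probe sets passed the test as deposited, 9 higher and 4 lower at 72 h. This is no feature of these genes alone, since 86.5% of all probe sets passed (71.8% higher and 14.6% lower). The median log2 difference of all probe sets was 0.35 as deposited and 0.02 after quantile normalization over all arrays, where 76.4% passed (40.3% higher and 36.1% lower) and again 13 members passed, 6 higher and 7 lower. Under both scalings 10 probe sets passed in the same direction. Of these, 6 rose (Nfatc2 1439205_at, Nfatc3 1419976_s_at, Ppp3cb 1428473_at, 1433835_at and 1427468_at, and Rcan1 1416600_a_at) and 4 fell (Nfatc1 1417621_at, 1425761_a_at and 1447084_at, and Ppp3r1 1433591_at). The actin 3' to 5' log2 ratio, a sign of RNA quality, was 0.21 to 0.27 at 72 h and 0.37 to 0.41 at 48 h, and its part in these differences was not tested. Under the general culture rule the 72 h cells would have been off the anti-CD3 and anti-CD28 stimulus since 48 h. Elapsed time and such a transfer cannot be told apart here.

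**Figure D3:**
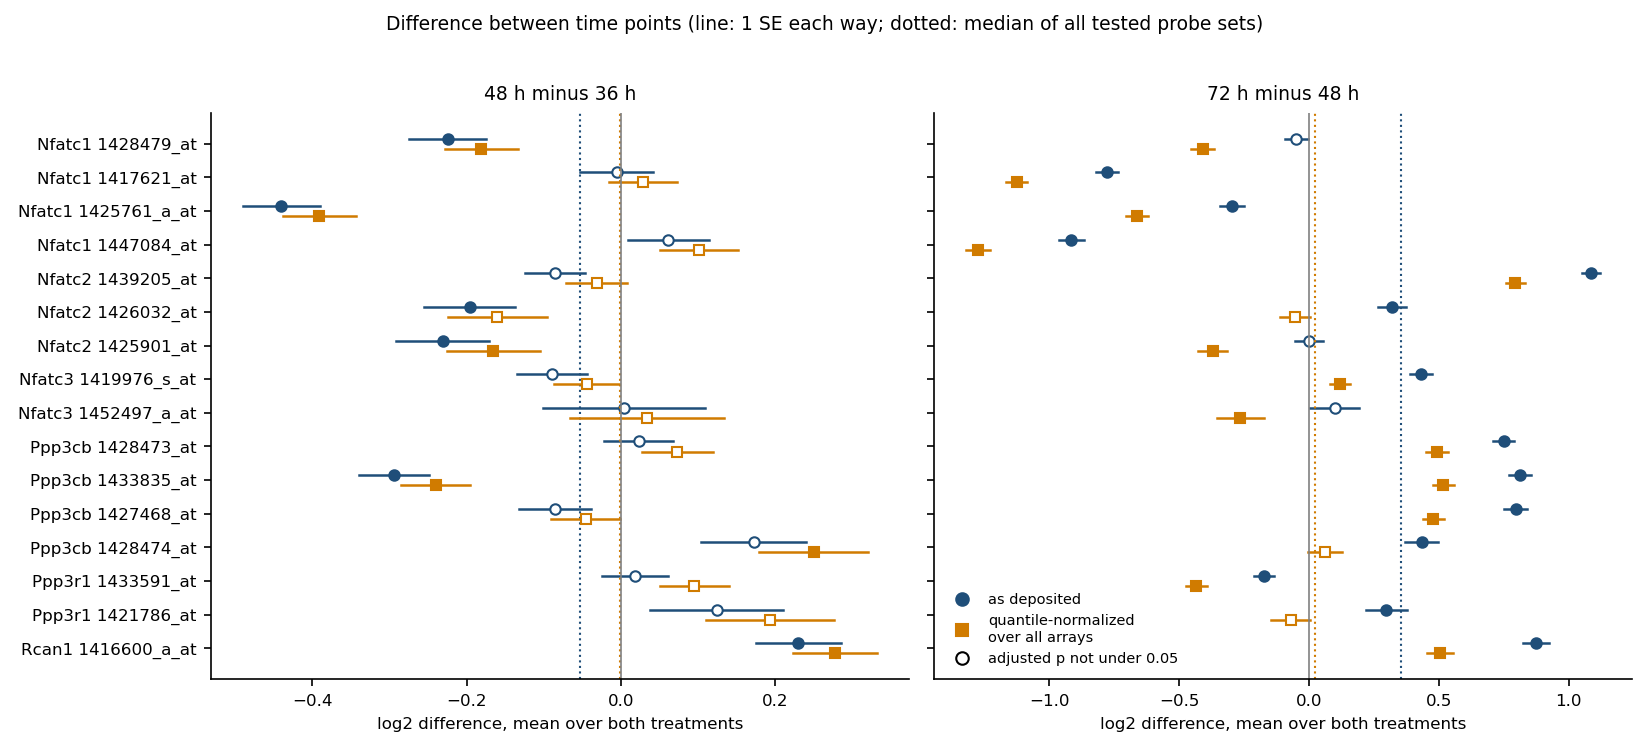
Log2 difference between neighbouring time points, averaged over both treatments, with 1 SE each way. Blue circles are the values as deposited and orange squares those after quantile normalization over all arrays, filled where the adjusted p is under 0.05, and the dotted lines are the medians of all probe sets tested. From 48 h to 72 h, Nfatc2 1439205_at stands highest (1.09 and 0.79) and Nfatc1 1447084_at lowest (-0.92 and -1.27).

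The 3 NFAT genes parted at 72 h. Nfatc2 1439205_at lay between 707 and 841 on the 6 arrays at 72 h, against 350 to 372 on the 4 arrays at 48 h, with no overlap. The ratio of the 72 h to the 48 h mean was 2.13, a log2 difference of 1.09 (SE 0.036, adjusted p 2.9e-11) as deposited and of 0.79 (SE 0.036) after quantile normalization. It held within the Antagomir-31 arm (1.15) and within the Antagomir-SCR arm (1.02). Probe sets of the same gene did not all follow. Nfatc2 1426032_at gave 0.32 as deposited but -0.055 after quantile normalization (adjusted p 0.41), and 1425901_at gave 0.00 as deposited and fell by 0.37 after it. Of the dim ones that were not tested, 1426031_a_at read 30.4 to 39.9 at 72 h and 18.3 to 19.0 at 48 h, and 1425990_a_at 20.8 to 28.2 and 13.2 to 15.4 at those times.

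Nfatc1 fell in 3 of its 4 tested probe sets under both scalings. On the 6 arrays at 72 h, probe set 1417621_at lay between 143 and 171, against 250 to 284 on the 4 arrays at 48 h, and 1447084_at lay between 34.2 and 41.9, against 72.3 to 77.1. No array of one time reached the range of the other. The ratios of the means were 0.584 and 0.531, and the log2 differences were -0.78 (SE 0.043) and -0.92 (SE 0.048) as deposited and -1.12 and -1.27 after quantile normalization. Probe set 1425761_a_at fell earlier too. It read 247 and 235 with Antagomir-31 and 265 and 248 with Antagomir-SCR at 36 h. At 48 h it read 196 and 187 with Antagomir-31 and 173 and 177 with Antagomir-SCR, and at 72 h it lay between 141 and 164 on all arrays. Its log2 differences were -0.44 (SE 0.050) from 36 h to 48 h and -0.30 (SE 0.046) from 48 h to 72 h, or -0.39 and -0.66 after quantile normalization. Probe set 1428479_at fell between 36 h and 48 h (-0.22, SE 0.050; quantile-normalized -0.18) and between 48 h and 72 h only after quantile normalization (-0.05, adjusted p 0.34, as deposited and -0.41 after it). The dim probe set 1447085_s_at, which was not tested, lay between 32.0 and 38.5 at 36 h, between 18.9 and 24.3 at 48 h and between 19.1 and 24.3 at 72 h.

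The rise of Nfatc3 was smaller and was seen in 1 of its 2 probe sets. Probe set 1419976_s_at lay between 392 and 409 at 72 h and between 289 and 308 at 48 h, a log2 difference of 0.43 (SE 0.042) as deposited and of 0.12 (SE 0.039, adjusted p 0.013) after quantile normalization. The other probe set, 1452497_a_at, gave 0.10 (SE 0.095, adjusted p 0.34) as deposited and -0.26 after it, and its arms differed in sign as deposited (-0.13 with Antagomir-31 and 0.32 with Antagomir-SCR).

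The bright probe sets of the calcineurin subunits passed in opposite directions. Ppp3cb, the beta form of the catalytic subunit, rose in its 3 bright probe sets. Probe set 1428473_at lay between 872 and 939 on the 6 arrays at 72 h and between 512 and 570 on the 4 arrays at 48 h. Probe set 1433835_at lay between 530 and 597 at 72 h and between 305 and 340 at 48 h, and 1427468_at between 412 and 468 and between 243 and 264. None of these pairs of ranges overlapped, and the ratios of the means were 1.68, 1.76 and 1.74. As log2 differences they were 0.75, 0.81 and 0.80 as deposited (SE 0.041 to 0.043) and 0.49, 0.52 and 0.48 after quantile normalization. The 4 tested probe sets differed between 36 h and 48 h, where 1433835_at fell (-0.29, SE 0.045; quantile-normalized -0.24), 1428473_at gave 0.02 and 1427468_at -0.09. The remaining one, 1428474_at, is dim (34.8 to 57.9 at 48 h and 72 h) and gave 0.43 as deposited and 0.06 after quantile normalization for 72 h against 48 h. For 48 h against 36 h it gave 0.17 (adjusted p 0.056) as deposited and rose by 0.25 (adjusted p 0.014) after quantile normalization.

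Ppp3r1, the calcium-binding regulatory subunit, did not share the rise of Ppp3cb. Its probe set 1433591_at read 1136 and 1106 with Antagomir-31 and 1211 and 1111 with Antagomir-SCR at 36 h, and 1137 and 1090 with Antagomir-31 and 1177 and 1220 with Antagomir-SCR at 48 h. Its 72 h values, given above, lie below those of 48 h without overlap, by a ratio of 0.886 (log2 -0.17, SE 0.039, adjusted p 0.0011; quantile-normalized -0.43, SE 0.041). Probe set 1421786_at of the same gene read 53.4 to 73.3 at 72 h and 46.1 to 52.9 at 48 h and gave 0.30 as deposited and -0.071 (adjusted p 0.41) after quantile normalization, so its direction depends on the scaling.

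Rcan1 rose at both steps in its tested probe set. At 36 h probe set 1416600_a_at read 65.0 and 61.0 with Antagomir-31 and 60.8 and 65.8 with Antagomir-SCR. All 4 arrays at 48 h lay above these, and all 6 arrays at 72 h (134 to 138) lay above 48 h (67.8 to 87.0). The log2 differences were 0.23 (SE 0.055, adjusted p 0.0049) from 36 h to 48 h and 0.88 (SE 0.050, adjusted p 3.7e-09) from 48 h to 72 h, or 0.28 and 0.50 after quantile normalization. Within the arms the first step gave 0.33 (adjusted p 0.0091) with Antagomir-31 and 0.13 (adjusted p 0.22) with Antagomir-SCR, and the second 0.78 and 0.97. The dim probe set 1416601_a_at read 29.6 to 38.9 at 72 h and 11.0 to 13.1 at 48 h, which lies below the array medians of that time. At 36 h it read 13.25 to 16.4, also below the array medians, so its first step went down without overlap as deposited. After quantile normalization the 36 h and 48 h ranges overlapped (log2 3.75 to 4.10 and 3.61 to 3.89). With the 48 h array median as the floor, this probe set was at least 1.61-fold higher at 72 h as deposited, where the array medians were higher too. After quantile normalization its log2 values were 4.70 to 5.10 at 72 h and 3.61 to 3.89 at 48 h.

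Over 36 h to 48 h, 6 of the 16 probe sets passed as deposited (1 higher, Rcan1, and 5 lower), beside 46.2% of all probe sets (15.9% higher and 30.2% lower), and 6 passed after quantile normalization (2 higher and 4 lower), beside 42.1% (21.9% higher and 20.3% lower). The 5 shared by both scalings were Rcan1 1416600_a_at, which rose, and Nfatc1 1425761_a_at and 1428479_at, Nfatc2 1425901_at (-0.23, quantile-normalized -0.17) and Ppp3cb 1433835_at, which fell.

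Rcan1 is known for an internal promoter with NFAT sites, and RefSeq gives the gene (GRCm38.p6, chr16:92391951-92466169, minus strand) 2 start sites. The windows of 300 bases from 250 before to 50 after each start were searched on both strands for the NFAT core GGAAA, the AP-1 site TGACTCA or TGAGTCA and the CRE TGACGTCA. The internal one (chr16:92400029-92400328) held 3 core matches, 1 AP-1 match and 1 CRE match, and the distal one (chr16:92466120-92466419) held 0 of each. Among 32851 such windows in the mouse table of RefSeq, 61.3% held at least 1 core, 9.42% at least 3, 5.2% the AP-1 site and 1.79% the CRE. The pieces below are shown because, among the windows of Rcan1, Ppp3cb, Nfatc2, Nfatc3 and Ppp3r1, only this one held all 3 kinds of match, with matches in capitals and the letters read along the gene's strand (1 core downstream of the CRE is not printed).
Rcan1 chr16:92400288-92400317: accttagcgcctTTTCCaccctcccgagca
Rcan1 chr16:92400244-92400273: agGGAAAatgactaaggtgtTGACGTCAcc
Rcan1 chr16:92400170-92400199: catgcgggaccTGACTCAggaatttgctgt
TTTCC is the core on the other strand, and no match overlaps another. A match is a run of letters and not a site shown to be bound. The share of all windows that hold all 3 kinds was not counted, and the Rcan1 probe sets were not assigned to either start. The window of Ppp3cb (chr14:20546524-20546823) held 4 cores, those of Nfatc2 held 3 and 1, those of Nfatc3 1 and 0 and that of Ppp3r1 0, and none of these held an AP-1 or CRE match. Nfatc1 was not searched.

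The rest of the pathway was read from 6 lists of 94 genes, of which 80 were tested, by the brightest probe set of each gene. Treatment called 2 of the 80 at 72 h and 0 at 36 h, at 48 h, in the average and in the late against early difference, beside 0.864% of all probe sets at 72 h (152, and 6 to 564 with single arrays left out). After quantile normalization it called 3 at 72 h, with Ctla4 (-0.28, adjusted p 0.050) as the addition, and 1 in the late against early difference (Ccl3, 0.46, adjusted p 0.041). Both genes called as deposited were NFAT-dependent and were higher with Antagomir-31. The chemokine gene Ccl3 averaged 935 ± 50.3 with Antagomir-31 and 698 ± 43.1 with Antagomir-SCR (SD, n = 3 each; log2 0.42, SE 0.053, adjusted p 0.0078), and it was called in 21 of 23 alternatives (adjusted p 0.00012 to 0.083). The Ccl3 call was lost without Antagomir-SCR replicate 3 (log2 0.42, adjusted p 0.0501) and with only the 72 h arrays in the fit. Havcr2, which encodes the inhibitory receptor Tim-3, averaged 1129 ± 30.4 with Antagomir-31 and 960 ± 24.0 with Antagomir-SCR (log2 0.23, SE 0.043, adjusted p 0.037), and it was called in 13 of 23 alternatives (adjusted p 0.0069 to 0.16). The Havcr2 call was lost without any 1 of the 3 Antagomir-SCR arrays or Antagomir-31 replicate 2 or 3 at 72 h, and without either Antagomir-SCR array at 36 h. It was also lost with no filter (adjusted p 0.14), with only the 72 h arrays (0.11) and with the replicate block (0.096). The median over the 22 tested NFAT-dependent genes was 0.01, beside -0.01 over all probe sets.

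The counts of each list from 48 h to 72 h stand beside 71.8% higher and 14.6% lower over all probe sets as deposited, and 40.3% and 36.1% after quantile normalization. Of the other calcineurin genes, 7 of 12 were tested, and from 48 h to 72 h 5 rose and 1 fell as deposited (4 and 2 after quantile normalization). The remaining catalytic subunit genes Ppp3ca and Ppp3cc rose by 0.58 and 0.54 (0.24 and 0.23 after quantile normalization). The calcineurin inhibitor genes Tbc1d10c and Cabin1 rose by 1.02 and 0.75 (0.73 and 0.38 after quantile normalization), and Rcan3, a relative of Rcan1, fell after quantile normalization only (-0.48, against -0.11 with an adjusted p of 0.061 as deposited). The median of the 7 was 0.54 as deposited and 0.23 after quantile normalization, beside 0.35 and 0.02 over all probe sets.

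Of the other NFAT family members and interactors, 4 of 6 were tested and 3 rose as deposited (2 rose and 1 fell after quantile normalization; medians 0.46 and 0.11). Nfatc4 gave 0.45 as deposited at intensities of 28.6 to 40.7 (group means from 48 h and 72 h) and lost the call after quantile normalization, and Nfat5, the calcineurin-independent relative, gave 0.07 (adjusted p 0.33) as deposited and -0.30 after it.

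Of 17 genes of calcium entry and calmodulin, 12 rose and 5 fell as deposited, beside 71.8% and 14.6% of all probe sets, and 5 rose and 6 fell after quantile normalization, beside 40.3% and 36.1%. Their medians were 0.28 and -0.02, beside 0.35 and 0.02 over all probe sets. The potassium channel gene Kcnn4 averaged 1874 ± 45.8 with Antagomir-31 and 1836 ± 101 with Antagomir-SCR at 72 h, against 3416 ± 12.2 and 3515 ± 10.5 at 48 h (log2 -0.90; quantile-normalized -1.14). The calcium sensor gene Stim2 fell by 0.81 (quantile-normalized -1.11), while the calcium release channel gene Itpr2 rose by 1.11 (0.73 after quantile normalization). Of the 13 kinases and export genes that return NFAT to the cytoplasm, 9 rose and 1 fell as deposited (6 and 5 after quantile normalization; medians 0.34 and 0.05), led by Dyrk3 (1.38 and 1.01) and Gsk3b (1.35 and 1.03).

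Among 17 nuclear partners, 11 rose and 5 fell as deposited (9 and 5 after quantile normalization; medians 0.48 and 0.18, again beside 0.35 and 0.02). Fos, the AP-1 subunit that pairs with Jun beside NFAT, fell. It averaged 18.9 ± 2.22 with Antagomir-31 and 17.9 ± 1.03 with Antagomir-SCR at 72 h, against 119 ± 5.08 and 120 ± 5.69 at 48 h, so it lay below the array median at 72 h and, with that median as the floor, was at least 4.24-fold lower. Batf3 rose by 1.28 and Tbx21, the lead Th1 factor, by 0.85 (1.06 and 0.60 after quantile normalization).

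Genes that NFAT is known to drive were mostly lower at 72 h, when the cells may already have been off the stimulus. Of 22 tested, 22 passed between 48 h and 72 h, 19 lower and 3 higher as deposited and 20 lower and 2 higher after quantile normalization, with medians of -1.39 and -1.72 beside 0.35 and 0.02 over all probe sets. Il3 fell most, to levels below the array median, with 18.9 ± 2.30 under Antagomir-31 and 16.5 ± 1.54 under Antagomir-SCR, against 11482 ± 365 and 12004 ± 266 at 48 h. With the array median at 72 h as the floor, since the table holds no detection calls, Il3 was at least 416-fold lower. Csf2 averaged 70.6 ± 5.81 with Antagomir-31 and 81.2 ± 5.93 with Antagomir-SCR at 72 h, against 5493 ± 287 and 6278 ± 533 at 48 h (log2 -6.28). The chemokine genes Ccl3 (-4.08) and Ccl4 (-3.18) fell too, as did Il2 (at least 5.11-fold lower, at levels below the array median at 72 h) and Ifng (-0.87), which were added after their values were seen. Nfatc1, an NFAT-induced gene outside the list, also fell, and Rcan1, another, rose. From 36 h to 48 h, 15 of the 22 were lower and 1 higher as deposited, beside 30.2% lower and 15.9% higher over all probe sets. After quantile normalization 11 were lower and 1 higher, beside 20.3% and 21.9%. The medians were -0.20 and -0.13, beside -0.05 and -0.0012 over all probe sets.

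**Figure D4:**
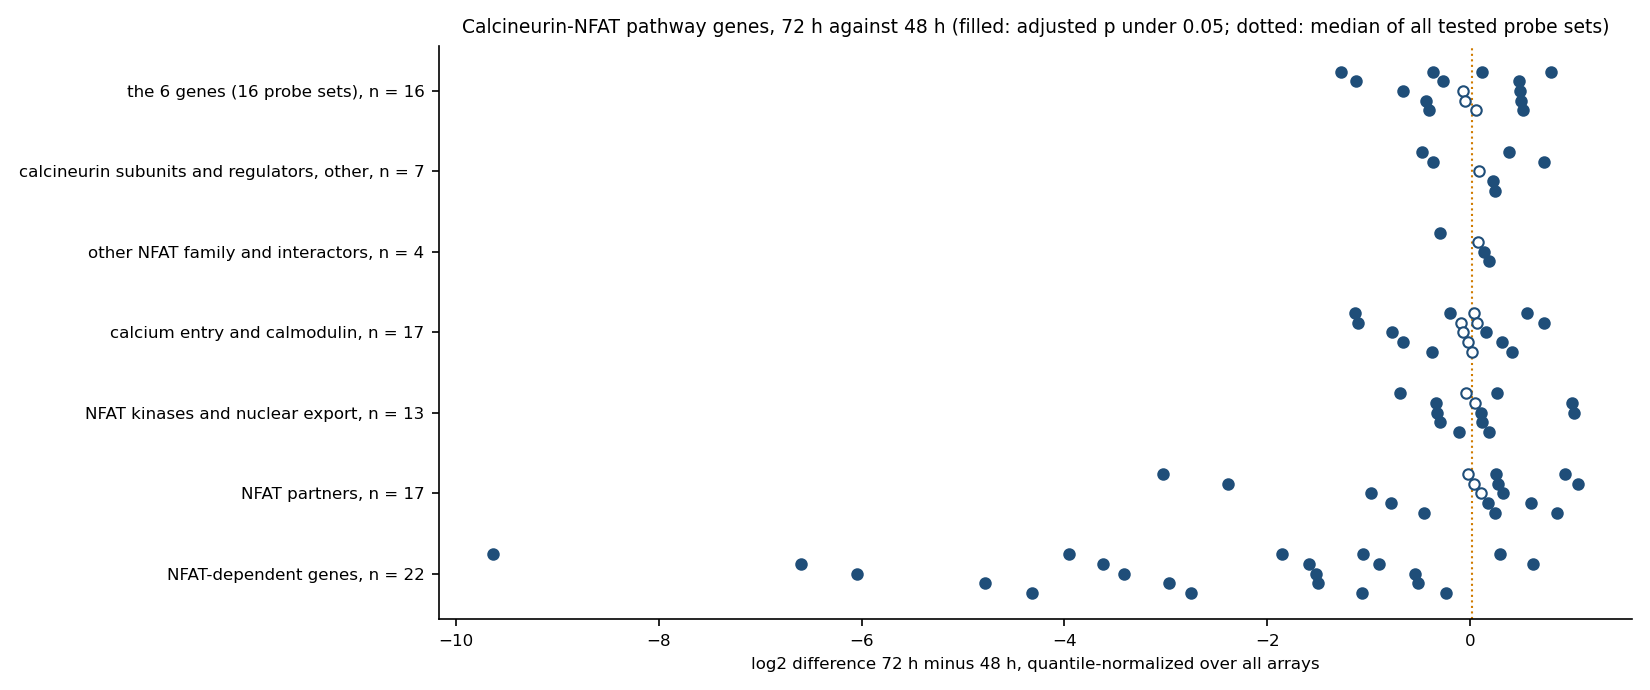
Log2 difference, 72 h minus 48 h and averaged over both treatments, after quantile normalization over all arrays, for the 16 probe sets of the 6 genes and for the 80 tested genes of the 6 pathway lists, 1 point a probe set. Filled points have an adjusted p under 0.05 and the dotted line is the median of all probe sets tested; the leftmost point is Il3, which lies below the array median at 72 h so that the size of its fall was not measured, while the probe sets of the 6 genes stay between -1.27 and 0.79.

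The members' patterns over the 14 arrays were set side by side by Pearson's r of log2 values as deposited. The r values are a description, since the arrays share their time points, and were not computed after quantile normalization. The brightest probe sets of Nfatc2, Nfatc3, Ppp3cb and Rcan1 ran together (r of 0.90 to 0.99 between pairs), and Ppp3r1 ran against them (-0.81 to -0.85). Once each time point was centred, the same pairs gave -0.54 to 0.23 and -0.49 to 0.21. The genes most like Nfatc2 were Cpped1, Bscl2 and Usp22 (r of 0.997, 0.997 and 0.996), but 4252 of 10369 genes exceeded 0.9. The same held for Rcan1, where 3600 genes exceeded 0.9 and Cep131 led (0.995), for Ppp3cb (4215, led by Cnot4, 0.996) and for Nfatc3 (3418, led by Fermt3, 0.992). Nfatc1 1428479_at had few companions, 32 genes over 0.9, led by Cish, an inhibitor of cytokine receptor signalling (0.944), Papolg and Iffo1. Ppp3r1 had 5, led by Nat14 (0.922), Farp1 and Ankrd13c. For Nfatc1 the companions describe 1428479_at and not the gene. This probe set was barely the brightest (mean log2 7.738, against 7.730 for 1417621_at). It was also the only tested Nfatc1 probe set not called lower from 48 h to 72 h as deposited.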

How the data were processed

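The 14 arrays were deposited as 1 table of RMA intensity values on a linear scale, which the authors had made from the scanner files with GCOS, affy and RMA (versions not given in the sources used here). Array medians differed between time points and hardly within them. Of the 45101 probe sets, 34945 carried 1 gene symbol in the platform annotation, 932 several and 9160 none, and none of the symbols looked up in RefSeq had to be updated. Intensities were taken to log2, and the 17590 probe sets with 1 symbol and a mean log2 of at least 5 (50.3%) entered 1 limma fit (version 3.58.1, R 4.3.3) of the 6 groups of treatment and time, with no replicate block. The fit gave 7 comparisons, with Benjamini-Hochberg adjustment over all probe sets in each and a threshold of 0.05. The fit was also run on simulated data of independent noise with added differences, which checks the code and not how these arrays vary. Levels are not compared between probe sets since they differ in affinity, except that the alternative by genes takes the highest probe set on each array and can switch between probe sets, as for Nfatc1. With 2 or 3 arrays a group, precision is limited by their number.

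Named were all probe sets of the 6 genes, from each pathway list up to 4 called genes with the smallest p in a comparison, and for each of the 6 the 3 genes with the highest correlation. The members and lists were chosen with earlier results of these data known. The alternatives were no filter, a mean log2 of at least 6, median centring, quantile normalization over all arrays or within each time point, only the arrays compared, a trended prior variance, no _s_at and _x_at probe sets, genes by their highest probe set, single treatment arms (time comparisons only), a replicate block, and each array left out. Tables were handled with Python 3.11.15 and pandas 2.3.3.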

Additional observations from a re-analysis of the deposited data

How the results depend on the processing

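None of the 16 probe sets was called for treatment under any alternative run on it (10 at each time point) or with any of the 14 arrays left out. Over all probe sets, the 2 calls at 36 h became 1 under the limit of 6 on the mean log2 and 0 with no filter, only the arrays compared, a trended variance, genes in place of probe sets, or the replicate block. The 152 calls at 72 h became 13 with no filter, 422 at a mean log2 of at least 6, 8 with only the arrays compared, 589 with a trended variance and 39 with the replicate block. The 3 calls of the average became 0 with no filter, 13 with a trended variance, 1 without _s_at and _x_at probe sets, 8 by genes and 0 with the replicate block. The 8 calls of the late against early difference became 2 with no filter, 34 at a mean log2 of at least 6, 83 with a trended variance, 13 after median centring, 29 by genes and 1 with the replicate block. Time calls became 16450 (48 h against 36 h) and 28071 (72 h against 48 h) with no filter, which tests more probe sets, and 5051 and 9063 by genes, which tests fewer. The 6 member calls of 48 h against 36 h became 10 with no filter, 1 by genes and 3 in the Antagomir-SCR arm alone, and the 13 of 72 h against 48 h became 6 by genes, of 6 genes. With single arrays left out, the calls ran from 0 to 2 at 36 h, from 0 to 39 at 48 h (39 without Antagomir-SCR replicate 2), from 6 to 564 at 72 h (6 without Antagomir-SCR replicate 3, 564 without Antagomir-31 replicate 4), from 0 to 12 in the average (12 without Antagomir-31 72 h replicate 4) and from 1 to 123 in the late against early difference (1 without Antagomir-31 72 h replicate 2, 123 without replicate 4). For 72 h against 48 h, 3 probe sets turned sign: Ppp3r1 1421786_at to -0.063 after median centring and -0.071 after quantile normalization, Nfatc2 1426032_at to -0.042 and -0.055, and Nfatc3 1452497_a_at to -0.26 and -0.26. The cause of these shifts was not tested.

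Same-numbered arrays of the treatments did not deviate together (correlations of deviations of 0.075 at 36 h, -0.18 at 48 h, and -0.018, -0.013 and 0.15 at 72 h), so the numbers were not taken to pair them. A crossed pairing at 48 h, chosen after seeing the data, called 0 probe sets (1261 at an unadjusted p under 0.05).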

Other observations

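A further probe set is annotated to both Wdr92 and Ppp3r1 and was therefore kept out of the comparisons. At 36 h it read 43.5 and 61.0 on the Antagomir-31 arrays and 36.7 and 55.5 on the Antagomir-SCR arrays. At 48 h its range was 46.1 to 48.8 under Antagomir-31, against 45.0 to 46.9 under Antagomir-SCR. At 72 h its range was 54.4 to 99.2 under Antagomir-31, against 87.0 to 126 under Antagomir-SCR. The Nfatc2 probe set 1440426_at and the Ppp3cb probe set 1446149_at, both below the limit for testing, stayed between 8.5 and 16.2 and between 8.3 and 15.7 on all 14 arrays.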
